A study of Mus musculus with 9 samples.

Results

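Semaphorins, ephrins, slits and netrins are the main families of guidance cues, and their receptors are the plexins and neuropilins, the Eph receptors, the Robo receptors and the Unc5 receptors. The genes described here were picked by symbol, and these families were chosen with earlier results of these data known. They are 68 of the 23337 genes in the table, and the netrin-G genes Ntng1 and Ntng2 were counted with the signalling partners instead. The cells were immortalised mouse embryonic fibroblasts (C57BL/6 x 129), and those of all 3 groups carry the Cebpb knockout. By stable transfection and Zeocin selection they held an empty vector (EV), rat C/EBPβ-LAP or rat C/EBPβ-LIP. LAP is a long isoform of the transcription factor C/EBPβ, and LIP is a truncated one that binds DNA but has no transactivation domain. There were 3 libraries per group, and the labels do not say whether these came from separate cultures or clones, so that p-values measure the spread between these libraries only, which may be technical.

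Guidance cues were first described as signals that attract or repel growing axons, and in fibroblasts the same molecules are known to act on adhesion, cell shape and migration. Secreted class 3 semaphorins bind neuropilins, which signal through plexins, whereas the membrane-bound classes bind plexins directly. Ephrin-A ligands are held in the membrane by a lipid anchor and mostly bind EphA receptors, and ephrin-B ligands span the membrane and mostly bind EphB receptors, with signals running into both touching cells. Slits are secreted and bind Robo receptors, and netrins bind Dcc, neogenin and the Unc5 receptors. C/EBP proteins bind a palindromic element close to TTGCGCAA, and the family was named after the CCAAT box.

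The sequences upstream of Sema4f, Epha3 and Plxnc1 are shown because these genes had the smallest p, respectively, in LAP against EV, in LIP against LAP and in LIP against EV. Each is the 250 bases before the transcript start on the strand of the gene, from RefSeq on GRCm38.p6. Capitals mark the CCAAT box, read as ATTGG where it lies on the other strand. The windows are chr6:82939770-82940019 for Sema4f, chr16:63864176-63864425 for Epha3 and chr10:94944846-94945095 for Plxnc1, all on the minus strand.
Sema4f: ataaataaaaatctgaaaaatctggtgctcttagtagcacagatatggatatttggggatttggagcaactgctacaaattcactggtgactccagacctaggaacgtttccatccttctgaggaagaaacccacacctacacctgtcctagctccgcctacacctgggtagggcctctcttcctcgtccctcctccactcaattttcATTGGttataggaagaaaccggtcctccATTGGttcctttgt
Epha3: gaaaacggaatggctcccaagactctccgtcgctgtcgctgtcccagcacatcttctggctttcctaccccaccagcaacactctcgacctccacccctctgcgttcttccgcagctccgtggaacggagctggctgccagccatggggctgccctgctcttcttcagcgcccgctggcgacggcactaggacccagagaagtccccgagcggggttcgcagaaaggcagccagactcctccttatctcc
Plxnc1: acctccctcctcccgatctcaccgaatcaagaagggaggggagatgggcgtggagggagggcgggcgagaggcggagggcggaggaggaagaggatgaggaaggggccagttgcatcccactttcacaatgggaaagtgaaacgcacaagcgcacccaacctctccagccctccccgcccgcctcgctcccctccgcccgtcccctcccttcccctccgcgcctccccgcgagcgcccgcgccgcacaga

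The Sema4f window held 2 CCAAT boxes, which ended 37 and 9 bases before the start, and the windows of Epha3 and Plxnc1 held none. Windows were found for 59 of the 68 genes, 75 windows in all. On either strand, CCAAT stood in at least 1 window of 18 of these 59 genes (30.5%), against 37.5% of the 27025 genes with a window. The full palindrome TTGCGCAA stood in 0 of the 59 genes and in 0.185% of all genes. The looser form TTGCNNAA, which includes that palindrome, stood in 3 of them, Plxna3, Robo2 and Sema4a (5.08%), against 10.8% of all genes. The guidance gene windows had a median GC content of 64.4%, against 52.4% for all windows, which changes how often such letters occur. CCAAT was searched after the values and the letters had been seen. A match is not a binding site, and a window without one says only that these letters are not in it.

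The libraries held 24839139 to 33522082 gene counts. A gene's count scaled to a common library size is given as CPM, and 3 counts, the floor used here, stood for 0.0879 to 0.122 CPM. Such a floor takes in counting error and no other. The Cebpb gene itself, whose loss all groups share, had 684 to 1041 counts in EV, 709 to 1077 in LAP and 816 to 985 in LIP, so that its counts do not tell the groups apart, and how many of these reads came from the rat constructs was not tested. The library LIP1 was closer to the EV libraries (Pearson's r of log2 CPM 0.983 to 0.988 across 11535 genes, which are not independent replicates) than to LIP2 (0.976) or LIP3 (0.970). This was not particular to LIP1. LAP1 was closer to the EV libraries (0.9843 to 0.9935) than to LAP2 (0.9806) or LAP3 (0.9842). Likewise, LAP3 was closer to the EV libraries (0.9847 to 0.9926) than to LAP1 (0.9842) or LAP2 (0.9754). The counts of calls, the medians and the genes past the threshold in comparisons with LIP are also given without LIP1. The summed level of 10 fibroblast markers, among them collagen I and vimentin, was 33326 to 37985 CPM in EV, 24576 to 41309 in LAP and 14524 to 28767 in LIP. The markers did not all move alike. Col1a1, Col1a2 and, at low levels, Pdgfra, Pdgfrb and Postn were lower in each LIP library than in each EV library. Col3a1, Fn1, Thy1, Fap and the vimentin gene Vim overlapped. Vim had 4155, 4980 and 4533 CPM in EV and 5092, 3358 and 4595 in LIP. The 4 smooth muscle markers, mostly Acta2, summed to 504 to 1619 CPM in LIP against 1115 to 1888 in EV and 650 to 2371 in LAP. Pecam1, Ptprc, Itgam and Myh11 were at 0 counts in every library, and the 5 endothelial markers together did not exceed 3.64 CPM nor the 5 leukocyte markers 8.88 CPM. The epithelial keratin genes Krt8 and Krt14 were read in all libraries, and the epithelial list of 5 markers summed to 485 to 1004 CPM over the 9 libraries. The 4 neural and Schwann cell markers summed to 56.7 to 99.3 CPM over the 9 libraries, mostly Tubb3, while Sox10 stayed at 1 to 4 counts. The part of these differences in the results below was not tested, and in bulk RNA a change in the share of cells of a type and a change in RNA per cell cannot be told apart.

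Most guidance genes were transcribed in these fibroblasts. Of the 68 genes, 52 averaged 20 or more counts over the 9 libraries and 24 averaged 1000 or more. Levels are compared between genes as RPKM, that is CPM per kb of the gene's exons. The highest were the netrin receptor gene Unc5b (126 RPKM), the EphA receptor gene Epha2 (95.4), the secreted semaphorin gene Sema3c (80.5), Slit3 (57.5), Plxna1 (49.9) and the ephrin-B gene Efnb2 (42.4). These were a ligand and a receptor of the semaphorin system, a ligand and a receptor of the ephrin system, 1 slit and 1 netrin receptor, while the highest netrin gene, Ntn1, reached 8.13 RPKM.

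Within the families 1 or a few members carried most of the signal; the genes named here beside the most abundant were chosen after their levels were seen. Among class 3 semaphorins, Sema3c was followed by Sema3f (29.7 RPKM), Sema3e (13.4) and Sema3d (10.9), whereas Sema3a stood at 0.581. Sema4c (12 RPKM) was the highest of class 4, and Sema5a (0.554), Sema6c (0.377) and Sema7a (0.529), a semaphorin with a lipid anchor, were low. Of the semaphorin receptors, Plxna1 and Plxnb3 (32.1 RPKM) were high, and the co-receptor Nrp1 (16.2) stood far above Nrp2 (0.0729). Each of the 5 ephrin-A genes was read, with Efna4 (8.70 RPKM) and Efna2 (7.01) on top. Among EphB receptors, Ephb3 (9.28 RPKM) and Ephb2 (5.79) were well above Ephb4 (0.271). The Robo receptor genes Robo1 (1.32 RPKM), Robo3 (0.737) and Robo2 (0.333) were all low beside Slit3 and Slit2 (6.81).

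The other 16 genes had a mean under 20 counts. Of these, Epha5, Epha10, Ephb1, Ntn5, Unc5a and Unc5d were at 3 counts or fewer in every library and so did not exceed the floor. Sema3b, Sema3g, Sema4a, Sema5b, Sema6b, Sema6d, Epha6, Epha8, Ephb6 and Robo4 had between 0 and 19 counts per library. For Efna3 (14.1% of exon bases), Efna4 (10.5%), Plxna1 (10.7%), Sema4c (7.3%), Epha1 (6.0%) and Ntn5 (23.4%), exons overlap those of another gene. As the strand setting of the counting is not given in the sources used here, reads of such overlaps cannot be told apart.

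**Figure D1:**
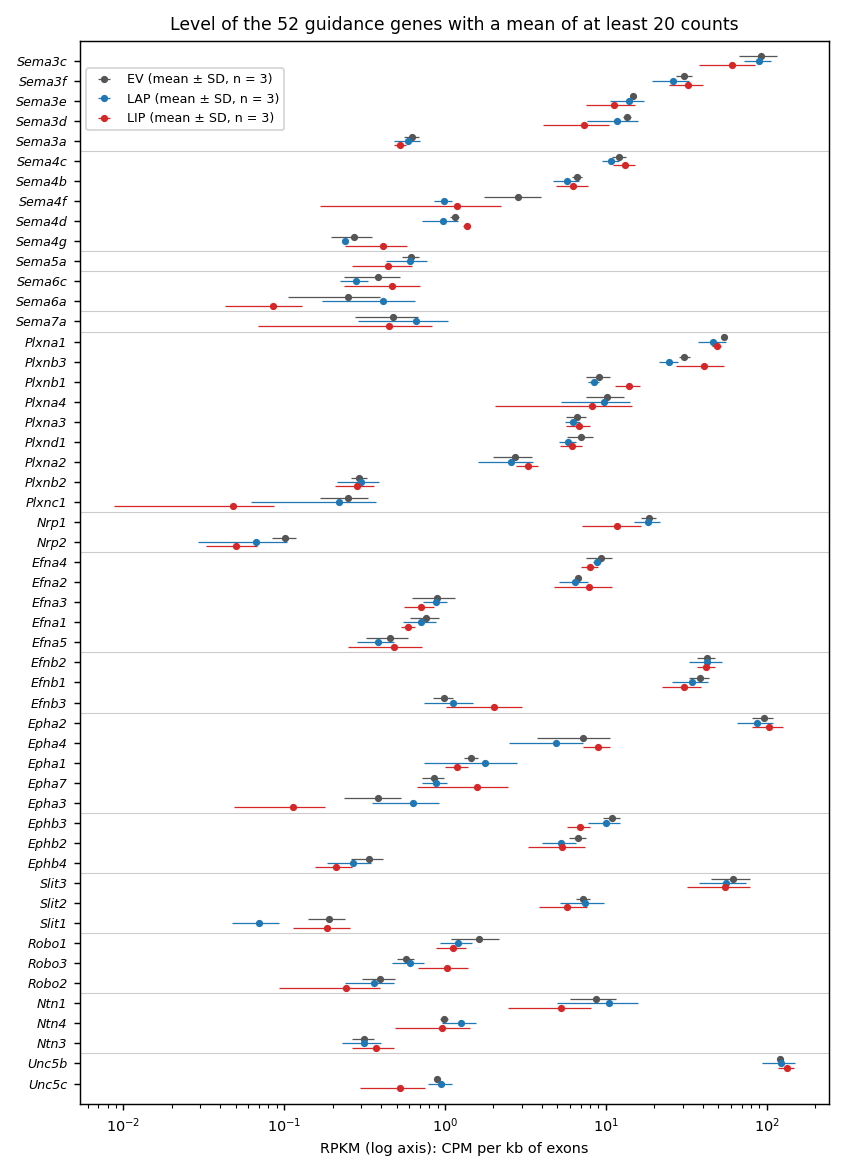
Level of the 52 guidance genes that averaged 20 or more counts, as RPKM on a log axis, grouped by family; points are the means of the 3 libraries of EV, LAP and LIP, and bars are ± SD. Unc5b, Epha2 and Sema3c lie at the right end, at 80.5 to 126 RPKM over all libraries, and the low end holds Nrp2 at 0.0729 RPKM.

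Whether LIP changes these genes was asked first, by comparing LIP with the EV cells, which were given neither isoform. In LIP, the genes with the smallest p were mostly lower than in EV, among them the plexin gene Plxnc1, the Eph receptor genes Epha3 and Ephb3, and the semaphorin genes Sema3d and Sema6a. However, none of them passed the threshold. The test was edgeR's quasi-likelihood F test, and its p adjusted over all genes (Benjamini-Hochberg) is called the edgeR adjusted p below. Past a threshold of 0.05 were 0 of the 66 genes tested, where 0.396% of all 18203 genes tested were. Without adjustment, 10 were lower in LIP (background 6.75%) and 4 higher (background 4.23%) at p under 0.05. DESeq2 and the edgeR exact test each called 3 guidance genes, Epha3, Ephb3 and Plxnc1, all lower, where they called 1.76% and 1.65% of all genes. Epha5 and Ephb1 had no counts in these 6 libraries and were not tested.

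Over the 52 guidance genes that averaged 20 or more counts, the median log2 fold change of LIP against EV was -0.17, against 0.02 over all such genes. Over 14 alternative settings this median lay between -0.30 and -0.08, and it was -0.24 without LIP1. Between libraries, the median of these genes had an SD of 0.15. Of these 52 genes, 34 were below 0 (65.4%), where 47.6% of all genes were. The LIP libraries lay entirely below the EV libraries for 9 of the 52 (17.3%, background 11.1%) and entirely above for 4 (7.69%, background 7.83%), the latter a share like the background. The fibroblast marker sum, which is mostly Col1a1, Col1a2, Col3a1, Fn1 and Vim, moved in the same direction as the median log2 fold change. Its part in that median was not tested.

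Among the ligands, the secreted Sema3d had 109, 119 and 122 CPM in EV and 69.2, 32.5 and 86.0 CPM in LIP, so that all LIP libraries were below all EV libraries. Its log2 fold change was -0.90 ± 0.27 (SE, edgeR adjusted p = 0.204), and its exact permutation p was 0.1, the smallest that 3 libraries against 3 allow. Sema3e, a ligand of plexin-D1 that was singled out after its values were seen, was also lower in each LIP library, with 131, 65.0 and 120 CPM against 138, 139 and 134 in EV. However, LIP1 lay close to EV3, and the log2 fold change was -0.38 (edgeR adjusted p = 0.583). The most abundant class 3 gene, Sema3c, overlapped between the groups, with 653 ± 174 CPM in EV and 436 ± 166 in LIP (SD, n = 3). For the transmembrane semaphorin gene Sema6a, LIP had 25, 28 and 10 counts and EV had 118, 36 and 55. Sema6a was 2.95-fold lower, with a log2 fold change of -1.56 ± 0.48 (edgeR adjusted p = 0.223). The netrin gene Ntn1 had 33.0 ± 17.6 CPM in LIP and 54.9 ± 17.5 in EV (SD, n = 3), with overlapping libraries and a log2 fold change of -0.73 ± 0.32 (edgeR adjusted p = 0.436). The ephrin-B gene Efnb3 was the ligand gene that stood highest, with 5.84, 9.86 and 3.55 CPM in LIP against 3.42, 2.62 and 3.34 in EV. The groups did not overlap, but LIP3 lay close to the EV libraries, and the log2 fold change of 1.03 ± 0.34 had an edgeR adjusted p of 0.256.

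Among the receptors, Plxnc1, which binds Sema7a, came closest to the threshold. EV had 91, 41 and 65 counts of it and LIP had 19, 6 and 7, and the groups did not overlap. It was 5.35-fold lower, with a log2 fold change of -2.42 ± 0.49 and an edgeR adjusted p of 0.0639. Epha3, a receptor for ephrin-A ligands, had 108, 125 and 70 counts in EV and 40, 18 and 23 in LIP (log2 fold change -1.77 ± 0.42, edgeR adjusted p = 0.104). Ephb3 differed less in size but varied less, with 79.5, 62.7 and 76.3 CPM in EV and 52.7, 38.0 and 46.3 in LIP, which gave a log2 fold change of -0.67 ± 0.17 (edgeR adjusted p = 0.121). In all of these genes each LIP library was below each EV library, at an exact permutation p of 0.1.

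The neuropilin co-receptors were also lower in the mean. Nrp1, which serves class 3 semaphorins and VEGF, had 168, 90.1 and 87.0 CPM in LIP against 159, 193 and 192 in EV, so that LIP1 alone lay within the EV range (log2 fold change -0.66 ± 0.23, edgeR adjusted p = 0.309). Nrp2, named after its values were seen, had 20, 12 and 18 counts in LIP and 45, 33 and 34 in EV, without overlap. The netrin receptor gene Unc5c had 10.0 ± 4.31 CPM in LIP and 17 ± 0.41 in EV (SD, n = 3) without overlap (log2 fold change -0.77 ± 0.27, edgeR adjusted p = 0.307).

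Fewer receptor genes pointed the other way. Plxnb1, the receptor of Sema4d, had 107, 140 and 154 CPM in LIP against 94.0, 69.9 and 96.0 in EV, a log2 fold change of 0.63 ± 0.18 (edgeR adjusted p = 0.194). Robo3, the divergent member of the Robo receptors, had 4.69, 6.98 and 9.59 CPM in LIP against 3.73, 3.58 and 4.45 in EV (log2 fold change 0.85 ± 0.28, edgeR adjusted p = 0.261). In both, each LIP library exceeded each EV library. Epha7, named after its values were seen, had 25.6 CPM in LIP3 but 12.3 and 8.71 in LIP1 and LIP2, against 7.09 to 9.67 in EV.

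Of the 6 genes with the highest RPKM, Sema3c stood lower in LIP in the mean, as given above, with a log2 fold change of -0.58 ± 0.29 (edgeR adjusted p = 0.501). The other 5 lay closer together. Unc5b had 831 ± 93.6 CPM in LIP and 762 ± 17 in EV (SD, n = 3), with a log2 fold change of 0.13 ± 0.18. Epha2 (0.11 ± 0.21), Efnb2 (-0.00 ± 0.17), Slit3 (-0.16 ± 0.30) and Plxna1 (-0.15 ± 0.16) likewise had log2 fold changes within 1 SE of 0. For the 38 of the 52 genes at an unadjusted p of 0.05 or more, these 6 included, log2 fold changes ranged from -0.71 to 0.59. Without LIP1, edgeR called 3 guidance genes lower in LIP, Epha3, Nrp1 and Plxnc1, and without LIP3 it called Plxnc1 and Sema3d lower and Efnb3 higher. The same fits called 1.56% and 2.06% of all genes, against 0.396% with all libraries.

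**Figure D2:**
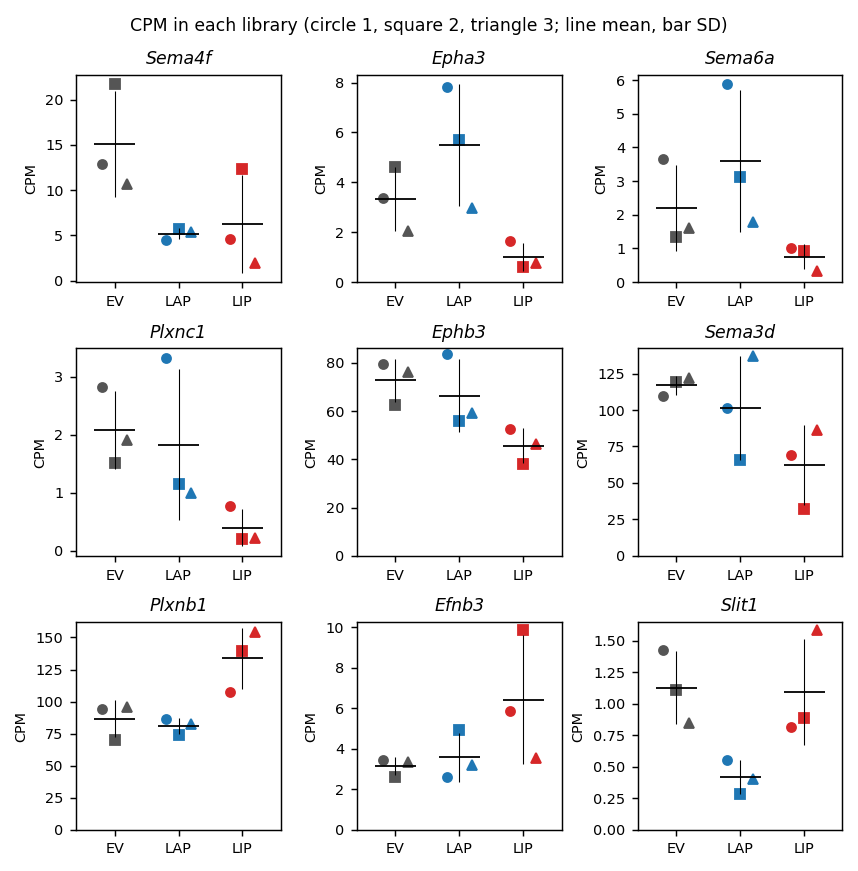
CPM of 9 guidance genes in each library of EV, LAP and LIP; the symbol gives the library number (circle 1, square 2, triangle 3), the line is the mean and the bar the SD of 3 libraries. Epha3, Sema6a, Plxnc1 and Ephb3 lie lowest in LIP, and Plxnb1 and Efnb3 lie highest in LIP in the mean. Slit1 lies low in LAP, and Sema4f lies low in LAP and also in LIP1 and LIP3. The libraries of a group spread widely in several panels.

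LAP was then compared with the same EV libraries, so that this comparison and the one above are not independent and their values are only set side by side. The transmembrane semaphorin gene Sema4f fell in LAP and was the only 1 of the 68 genes tested past the threshold, where 0.0606% of all 18156 genes were called in either direction and 0.033% as lower. Sema4f (ENSMUSG00000000627.15, chr6:82911885-82939769, minus strand) had 414, 589 and 364 counts in EV and 145, 158 and 146 in LAP. In CPM this was 15.1 ± 5.86 in EV and 5.18 ± 0.63 in LAP (SD, n = 3), and every LAP library was below every EV library. It was 2.93-fold lower, with a log2 fold change of -1.55 ± 0.25 (edgeR adjusted p = 0.0432, exact permutation p = 0.1). In LIP, Sema4f had 114, 377 and 59 counts, so that LIP2 reached the EV range (log2 fold change -1.26 ± 0.50 against EV, edgeR adjusted p = 0.378).

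The call on Sema4f depended on the setting. Its edgeR adjusted p was 0.203 without EV2, 0.123 without LAP1, 0.198 without LAP2, 0.407 after filterByExpr (edgeR's filter on low counts) and 0.996 in a model of all 9 libraries, settings that called 0.024% and 0.0165% of all genes. With the replicate number as a block, DESeq2 or the edgeR exact test the adjusted p was 0.000368, 0.000135 and 0.000406, and these called 0.297%, 0.143% and 0.182% of all genes.

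Slit1, a secreted ligand of Robo receptors, was the other gene with an unadjusted p under 0.05 in LAP. EV had 46, 30 and 29 counts, and there were 18, 8 and 11 in LAP and 20, 27 and 49 in LIP. The LAP libraries lay below all others, with a log2 fold change of -1.42 ± 0.37 against EV (edgeR adjusted p = 0.601). Without adjustment, 2 guidance genes were thus lower and 0 higher at p under 0.05 (backgrounds 1.34% and 1.93%). DESeq2 and the edgeR exact test also had 0 higher at that level, but over 13 alternative settings there were 2 to 7 lower and 0 to 4 higher, the 4 without LAP3.

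The 52 genes had a median log2 fold change of -0.10 in LAP, against 0.00 over all such genes, and 39 of the 52 were below 0 (75.0%), where 49.6% of all genes were. Over 13 alternative settings this median lay between -0.22 and 0.01, the latter without LAP2, the library whose Unc5b (559 CPM), Epha2 (293 CPM) and Plxna1 (323 CPM) were each the lowest of the 9. Between libraries, the median of the 52 genes had an SD of 0.21, which exceeds the size of the median fold change. The LAP libraries lay entirely below EV for 4 of the 52 (7.69%, background 3.98%), Sema4f, Slit1, Plxna1 and the X-linked Plxnb3, a receptor of Sema5a, and entirely above for 0 (background 3.78%). Plxna1, the partner of neuropilins, had 475, 323 and 463 CPM in LAP against 492, 478 and 505 in EV, a gap that rests on small distances between libraries apart from LAP2. Plxna1 and Plxnb3 each had an edgeR adjusted p of 0.918. The same adjusted p stood for the other genes of small p in LAP, the EphB receptor gene Ephb2 (-0.35 ± 0.19), Robo1 (-0.44 ± 0.25) and Plxnd1 (-0.28 ± 0.17), given as log2 fold changes by edgeR. Epha3 (0.72 ± 0.34) and Sema6a (0.70 ± 0.42) had log2 fold changes above 0, also at 0.918.

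**Figure D3:**
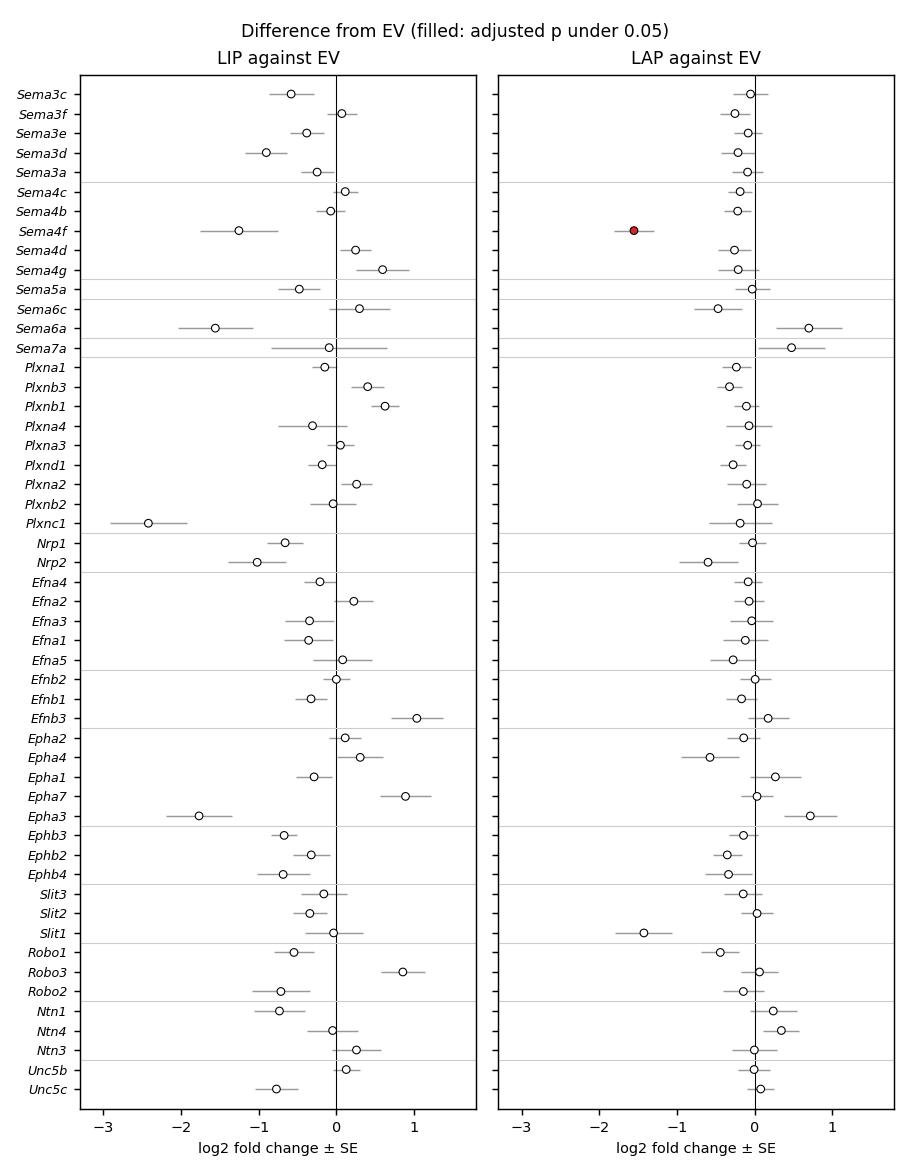
Log2 fold change ± SE of the 52 guidance genes that averaged 20 or more counts, LIP against EV on the left and LAP against EV on the right; filled points have an edgeR adjusted p under 0.05. The only filled point is Sema4f in LAP against EV (-1.55), while Plxnc1 (-2.42), Epha3 (-1.77) and Sema6a (-1.56) lie farthest to the left in LIP against EV.

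The isoforms were compared directly next. LIP had lower levels than LAP of the receptor gene Epha3 and of the semaphorin gene Sema6a, and both passed the threshold. These were 2 of the 68 genes tested, both lower in LIP, where 1.05% of all 18166 genes were called in either direction and 0.837% as lower. Without adjustment, 8 genes were lower in LIP (background 5.98%) and 8 higher (background 3.3%) at p under 0.05. LIP lay entirely below LAP for 5 of the 52 genes (9.62%, background 7.88%) and entirely above for 6 (11.5%, background 6.93%). The median log2 fold change of the 52 genes was -0.04, against 0.01 over all such genes. It took either sign over 14 alternative settings, from -0.15 without LIP3 to 0.15 without LAP1, and was -0.09 without LIP1 and 0.01 with scaling by total counts only. Between libraries, the median of the 52 genes had an SD of 0.24. Of the 52, 28 were below 0 (53.8%, background 49.0%).

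Epha3 (ENSMUSG00000052504.7, chr16:63543534-63864175, minus strand) had 254, 159 and 80 counts in LAP and 40, 18 and 23 in LIP. Its level was 5.50 ± 2.44 CPM in LAP and 0.988 ± 0.563 in LIP (SD, n = 3), without overlap, and EV lay between them at 3.34 ± 1.28 CPM. It was 5.55-fold lower in LIP, with a log2 fold change of -2.47 ± 0.43 (edgeR adjusted p = 0.00831, exact permutation p = 0.1). Without LAP2 the edgeR adjusted p was 0.0927, and without LIP1 it was 0.0206. The most abundant receptor of the same family, Epha2, had 408 ± 103 CPM in LAP and 483 ± 107 in LIP (SD, n = 3), with overlapping libraries.

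Sema6a, whose protein binds plexin-A2 and plexin-A4, had 191, 87 and 48 counts in LAP and 25, 28 and 10 in LIP, and no LIP library reached the lowest LAP library. It was 4.75-fold lower, with a log2 fold change of -2.25 ± 0.47 (edgeR adjusted p = 0.0260). The edgeR call was lost without LAP1 (0.0917), LAP2 (0.131) or LIP1 (0.0756). Of its receptors, both named after their values were seen, Plxna2 had a log2 fold change of 0.36 ± 0.26 and Plxna4 one of -0.24 ± 0.43 (edgeR adjusted p = 0.763 and 0.901). After filterByExpr neither Epha3 (0.155) nor Sema6a (0.200) was past the threshold, and edgeR then called 0 guidance genes (background 0.0161%), with 6 below and 7 above 0 at an unadjusted p under 0.05. DESeq2 called 3, these genes and Plxnc1 (background 1.4%), and the edgeR exact test called 2 (background 1.33%).

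In this comparison libraries with the same replicate number deviated together, with correlations of 0.558, 0.413 and 0.466, and a model with the replicate number as a block gave 15 calls in place of 2. That was 22.1% of the genes tested, where the same model called 6.51% of all genes. The test pools the spread of a gene in part with that of all genes, so its p does not rest on that gene's libraries alone. With the block, SE were alike for several genes, such as Ntn1 (0.178), Nrp1 (0.177) and Sema3d (0.175), but larger for others, such as Plxnc1 (0.383). Lower in LIP by this model were Epha3, Sema6a, Plxnc1, Ntn1, Unc5c, Sema3d, Nrp1 and Sema3c. Higher in LIP were Slit1, Epha4, Efnb3, Robo3, Epha7, Plxnb1 and Plxnb3. Without LIP1, a setting added after the data were seen that leaves 2 pairs, the block called 8 (background 3.61%), namely Epha3, Sema6a, Plxnc1, Ntn1 and Unc5c as lower and Epha4, Plxnb1 and Plxnb3 as higher. Ligand and receptor genes stood on both sides in the fit of all 6 libraries. The netrin gene Ntn1 and the netrin receptor gene Unc5c were among the lower genes, and the slit gene Slit1 and the Robo receptor gene Robo3 were among the higher ones. Their families did not move as a whole, the genes of low mean counts left aside. With the block, log2 fold changes were 0.17 for Unc5b and 0.27 for Ntn3, but -0.46 for Ntn4. They were -0.38 for Slit2, -0.06 for Slit3, -0.09 for Robo1 and -0.65 for Robo2. None of these genes was past the threshold.

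Of the genes lower in LIP by this model, Plxnc1 had 108, 32 and 27 counts in LAP and 19, 6 and 7 in LIP (log2 fold change -2.22 ± 0.56, edgeR adjusted p = 0.0647 without the block and 7.39e-06 with it). Ntn1 had 104, 52.4 and 39.6 CPM in LAP and 53.4, 22.7 and 23.1 in LIP, so that the ranges overlapped while each LIP library was below the LAP library of its number. Its log2 fold change was -0.97 ± 0.34 without the block (edgeR adjusted p = 0.285) and -0.96 ± 0.18 with it (2.76e-05). Unc5c had 21.6, 15.6 and 17.1 CPM in LAP and 14.7, 9.21 and 6.14 in LIP (edgeR adjusted p = 0.284 without the block, 0.00119 with it). Sema3d, Nrp1 and Sema3c had log2 fold changes of -0.73 ± 0.17, -0.68 ± 0.18 and -0.59 ± 0.19 with the block, at edgeR adjusted p of 0.00224, 0.00596 and 0.0373.

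Of those higher in LIP by this model, Epha4, an Eph receptor that binds ligands of both ephrin classes, had 56.0, 82.0 and 76.6 CPM in LIP and 52, 48.3 and 17.4 in LAP. Its groups did not overlap, and its log2 fold change was 0.89 ± 0.30 without the block (edgeR adjusted p = 0.253) and 1.01 ± 0.20 with it (0.000141). Plxnb1 had 81.1 ± 6.35 CPM in LAP and 134 ± 23.8 in LIP (SD, n = 3), with an edgeR adjusted p of 0.143 without the block and 0.00267 with it. Plxnb3 had 175, 135 and 173 CPM in LAP and 193, 241 and 360 in LIP (0.278 without the block, 0.00569 with it). Slit1, low in LAP as given above, was 2.63-fold higher in LIP, with a log2 fold change of 1.39 ± 0.46 (edgeR adjusted p = 0.218 without the block, 0.0238 with it). Efnb3, Robo3 and Epha7 had edgeR adjusted p of 0.0327, 0.0340 and 0.0175 with the block, while their LIP and LAP libraries overlapped. The fibroblast marker sum was lower in LIP than in LAP in the mean, as given above, and its part in these calls was not tested.

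**Figure D4:**
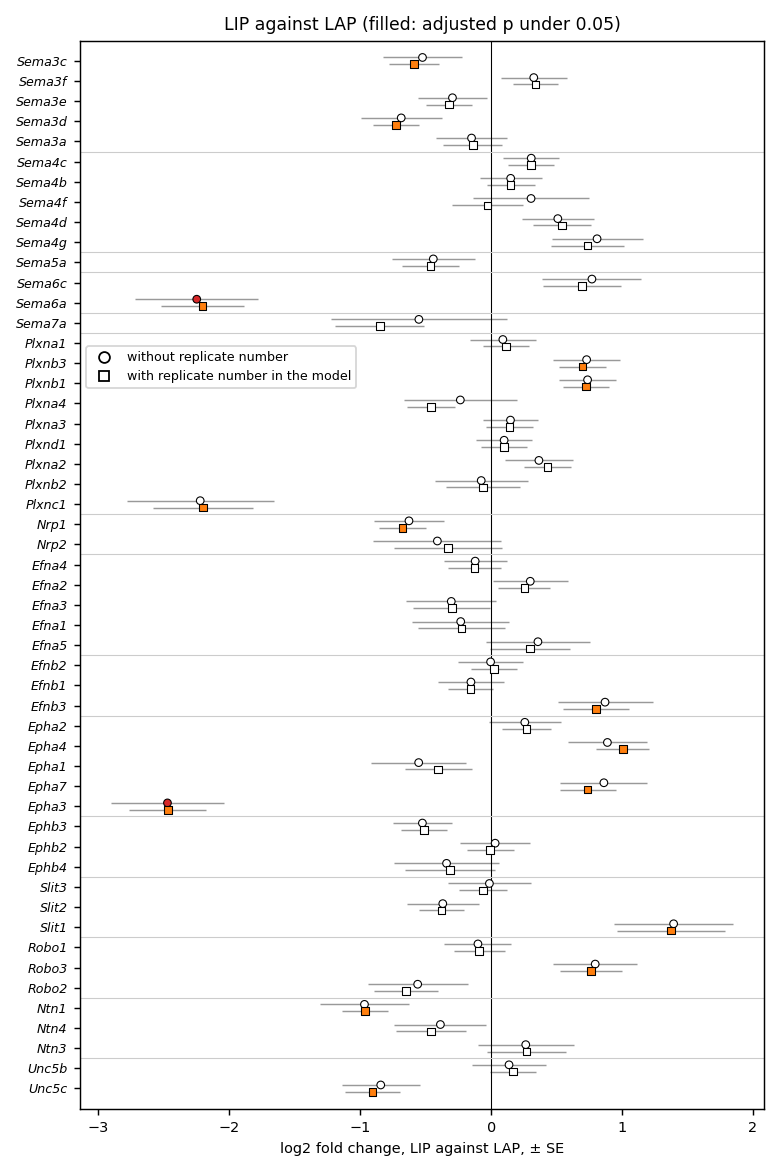
Log2 fold change ± SE of LIP against LAP for the 52 guidance genes that averaged 20 or more counts; circles are from the model without and squares from the model with the replicate number, and filled symbols have an edgeR adjusted p under 0.05. Epha3 and Sema6a are filled in both models, and 13 more genes are filled only with the replicate number.

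The signalling partners of these families were read from a list of 68 co-receptors, modifiers and intracellular partners, of which 65 were in the table. In LIP against EV 1 of 63 partners tested was past the threshold (1.59%, background 0.396%, or 0.0659% as higher). This was Crmp1, a cytosolic mediator of semaphorin signals in neurons, which rose in LIP. EV had 0, 0 and 2 counts of Crmp1, LAP had 2, 3 and 2, and LIP had 16, 22 and 51. Against the floor of 3 counts per library, in TMM-scaled CPM, Crmp1 was at least 10.3-fold higher in LIP than in EV and at least 9.7-fold higher than in LAP. Its edgeR adjusted p was 0.0152 against EV and 0.00650 against LAP, and 0.0158 and 0.0206 without LIP1, but it was 0.114 and 0.127 after filterByExpr, 0.0822 against EV without EV2 and 0.0927 against LAP without LAP2. Its level stayed low, at 1.01 ± 0.555 CPM in LIP (SD, n = 3).

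In LIP against LAP 3 of 63 partners were past the threshold (4.76%, background 1.05%), namely Crmp1, Gpc1 and Dscam. Gpc1 encodes glypican-1, a heparan sulfate proteoglycan that binds slits, and had 55.1, 38.4 and 28.3 CPM in LAP and 25.8, 12 and 9.50 in LIP. It fell in LIP relative to LAP by 1.35 ± 0.32 on the log2 scale (edgeR adjusted p = 0.0488), without overlap. Against EV, where it had 41.1, 37.9 and 35.6 CPM, its log2 fold change was -1.28 ± 0.30 (edgeR adjusted p = 0.101). Dscam, a netrin receptor, had 40, 15 and 11 counts in LAP and 5, 2 and 1 in LIP, with an edgeR adjusted p of 0.0461. The edgeR calls on Gpc1 and Dscam were both lost after filterByExpr (0.271 and 0.200), with scaling by total counts alone (0.0784 and 0.0730), without LAP1 (0.120 and 0.292), without LAP2 (0.203 and 0.150) and without LIP2 (0.160 and 0.124), and that on Dscam also without LIP1 (0.0574). In the model of all 9 libraries Gpc1 had an edgeR adjusted p of 0.0511, and without LIP1 it had one of 0.0224.

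Dpysl5, of the same family as Crmp1, had 130, 105 and 156 CPM in LAP and 217, 212 and 387 in LIP. Its log2 fold change was 1.08 ± 0.27, at an edgeR adjusted p of 0.0592 without and 4.45e-06 with the replicate block. With the block, 8 partners were past the threshold in LIP against LAP (background 6.51%), or 5 without LIP1 (background 3.61%). Among the 8 was Srgap3 (0.0154), a GTPase-activating protein that binds Robo receptors. In LAP against EV, 0 of 64 partners were past the threshold by edgeR, 2 had an unadjusted p under 0.05, both lower (background 1.34%), and DESeq2 and the edgeR exact test called 1 each (backgrounds 0.143% and 0.182%). That gene was Srgap3, with 35.2, 27.8 and 28.9 CPM in LAP against 54.7, 54.8 and 46.7 in EV and 44.7, 62.8 and 37.5 in LIP. In LAP its log2 fold change against EV was -0.77 ± 0.16 (edgeR adjusted p = 0.214 without the block and 0.0129 with it).

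Other partners named by rank of p were Rgma and Cntn2. Rgma, a ligand of neogenin, had 12.3, 12.9 and 15.9 CPM in EV and 9.84, 8.78 and 7.20 in LIP, without overlap (edgeR adjusted p = 0.234). Cntn2, an adhesion molecule of axons, had 32, 16 and 32 counts in EV and 23, 3 and 11 in LAP. Its edgeR adjusted p was 0.918.

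**Figure D5:**
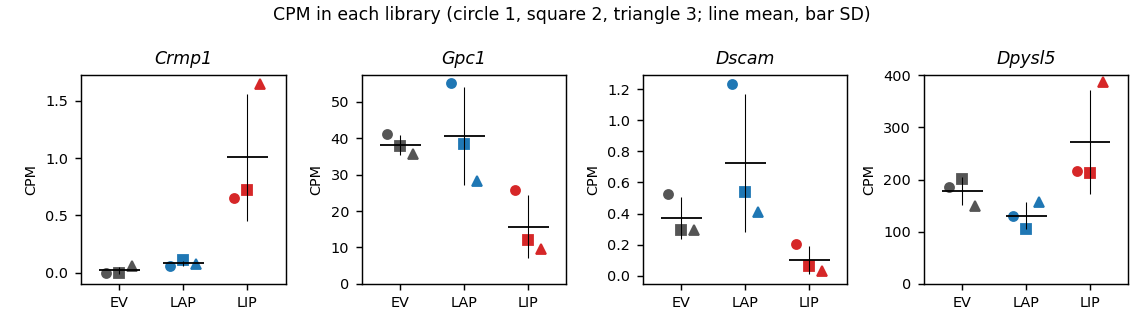
CPM of the 4 partner genes Crmp1, Gpc1, Dscam and Dpysl5 in each library of EV, LAP and LIP; the symbol gives the library number (circle 1, square 2, triangle 3), the line is the mean and the bar the SD of 3 libraries. Crmp1 lies near 0 in EV and LAP and at 0.653 to 1.65 CPM in LIP, Gpc1 and Dscam lie lowest in LIP, and LIP3 is the highest Dpysl5 library at 387 CPM.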

How the data were processed

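RNA of 9 libraries (TruSeq RNA v2, 50 bp reads) was sequenced. The authors deposited raw counts per gene, that is, reads assigned by HTSeq 0.5.4 after alignment with TopHat 1.4.1, as the submitters' processing notes name them; the notes list the builds GRCh38 and mm10. The strand setting and the handling of reads with several alignments are not given in the sources used here.

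Counts were normalized with TMM and tested with edgeR 4.0.16 (R 4.3.3), by the quasi-likelihood test without covariates on the 6 libraries of each comparison, on each gene that had 1 or more counts there. Benjamini-Hochberg adjustment ran over all genes tested, at a threshold of 0.05. The quasi-likelihood test pools the spread of each gene in part with that of all genes. SE was obtained as log2 fold change over root F. CPM are TMM-scaled over all 9 libraries, and log2 fold changes come from the fit of 6. Exon lengths and positions are from GENCODE M21 (GRCm38). The permutation test of single genes was exact and two-sided.

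The replicate numbers 1 to 3 come from the labels. Same-numbered libraries deviated together in LAP against EV (correlations 0.524, 0.210 and 0.511) and LIP against LAP (0.558, 0.413 and 0.466), so the block is given beside these results where it changes a call.

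Named by rule are 36 genes: those past the threshold, the member of each family with the highest mean CPM, in each comparison the 8 genes with the smallest p among those averaging 20 or more counts, and for partners those past the threshold and the 3 with the smallest p. Further genes were named outside this rule, many of them after their values were seen. The genes and lists were chosen with earlier results of these data known. Results were recomputed with DESeq2 1.42.0 (test, and size factors in edgeR), edgeR's exact test, scaling by total counts, filterByExpr, a model of all 9 libraries, the replicate block, leaving out each library and, added after the data were seen, the block without LIP1. Only the main edgeR test was tried on simulated data, for LIP against EV. Figures were drawn with matplotlib 3.10.9.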

Additional observations from a re-analysis of the deposited data

How the results depend on the processing

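Of 1474 alternative values for single genes, 0 turned in direction once called, 68 passed the threshold that the reported value missed and 27 missed the threshold that it had passed. For LIP against EV, the count of guidance genes past the threshold was 0 as reported and 3 with DESeq2, 3 with the edgeR exact test and 0 to 3 with a library left out, where LIP1 and LIP3 gave the 3 (1.56% and 2.06% of all genes). For LAP against EV it was 1 and became 0 with filterByExpr, 0 with all 9 libraries in a single model and 0 to 1 with a library left out. For LIP against LAP it was 2 and became 0 with filterByExpr, 15 with the replicate block and 0 to 5 with a library left out, where LAP2 gave the 0 and LIP3 the 5 (0.0389% and 2.52% of all genes). The partner counts of 1, 0 and 3 in LIP against EV, LAP against EV and LIP against LAP became 2, 1 and 4 with DESeq2 and with the edgeR exact test, 0, 0 and 0 with filterByExpr and 2, 1 and 8 with the replicate block. With the replicate block and LIP1 left out, added after the data were seen, the guidance counts were 7 in LIP against EV and 8 in LIP against LAP, and the partner counts 2 and 5. With total counts only the partner count in LIP against LAP was 1. With a library left out these counts were 0 to 3, 0 to 0 and 0 to 4. The cause of these changes was not tested. The median log2 fold change lay between -0.30 and -0.08 for LIP against EV, between -0.22 and 0.01 for LAP against EV and between -0.15 and 0.15 for LIP against LAP, over 14, 13 and 14 alternatives.

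In LIP against EV the replicate numbers are shared, but the libraries paired only in part. Correlations between libraries of the same number were 0.290, -0.121 and 0.231. LIP1 and LIP3 each correlated most with the EV library of their number, and LIP2 did not. With the replicate block, 7 guidance genes were past the threshold in that comparison (Epha3, Ephb3, Ntn1, Plxnc1, Sema3d, Sema4f and Sema6a, at edgeR adjusted p from 0.00220 to 0.0488), where the block called 2.57% of all genes. In LAP against EV the block left the guidance count at 1. Depth limits most the 16 guidance genes that averaged under 20 counts, of which 6 did not exceed the floor of 3 counts in any library.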

Other observations

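The guidance genes varied more between libraries of a group than genes at large. Among the 52 genes that averaged 20 or more counts, the highest library exceeded the lowest more than 2-fold for 7 in EV, 11 in LAP and 24 in LIP (13.5%, 21.2% and 46.2%). Over all genes with such a mean the shares were 5.07%, 13.9% and 19.5%. Plxna4, a plexin that signals with neuropilins and was named after its values were seen, had 107, 33.5 and 208 CPM in the 3 LIP libraries and 163, 100.1 and 168 CPM in EV. Sema7a, the ligand of plexin-C1, had 55 and 66 counts in LIP1 and LIP2 but 1 count in LIP3.

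Several of these genes also ordered the libraries of every group in the same way by replicate number. Library 2 was the lowest of its group in EV, LAP and LIP for 9 of the 52 genes, among them Plxna4, Epha7, Slit2 and Ephb3 (17.3%, against 6.72% of all genes). Library 1 was the highest in all 3 groups for 10 of them, among them Ntn1, Plxnc1, Sema3c and Unc5b (19.2%, against 8.03%). Library 3 was the highest in all 3 groups for 7 (13.5%, against 11.5%). The other orders were rarer than among all genes. Library 2 was the highest in all 3 groups for 1 of the 52 genes, Sema4f (1.92%, against 6.48%). Library 1 was the lowest for 1, Efna1 (1.92%, against 6.81%), and library 3 the lowest for 1, Sema7a (1.92%, against 11.0%). Whether libraries of 1 number were made together is not given in the sources used here.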
